A study of Mus musculus with 768 samples.

Results

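The genes described here encode the proteins of the mitochondrial ribosome. They were chosen by symbol, as every gene whose symbol begins with Mrpl or Mrps and a number. The rule found 77 of the 23127 genes in the count table, 48 named for the large subunit (Mrpl) and 29 for the small subunit (Mrps). RNA had been measured in 768 single thymocytes of C57BL/6 mice aged 6 to 8 weeks, sorted onto 8 plates of 96 cells. The mice were wild type (WT), Tcf7-/- (a germline loss of Tcf7, the gene of the T-cell transcription factor TCF1), Tcf7fl/fl with Vav-cre, a recombinase driven in all blood cells, or Tcf7fl/fl with Lck-cre, a recombinase driven in T-cell precursors. Lineage-negative CD45+ cells lacking CD4 and CD8 were sorted as DN1 (CD25-, CD44+) or as DN2-3 (CD25+). WT, Tcf7-/- and Vav-cre mice each gave 1 plate of DN1 and 1 of DN2-3 cells, and Lck-cre mice gave 2 plates of DN2-3 cells. No treatment was given, and the labels name neither animals nor sex.

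Mitochondria keep a small genome whose protein-coding genes all specify core subunits of the respiratory chain and of ATP synthase. These few proteins are translated inside the organelle by a dedicated ribosome. Its RNAs come from the mitochondrial genome, while all of its proteins are encoded in the nucleus, made in the cytosol and imported. The large subunit forms peptide bonds and the small subunit reads the messenger RNA. Many of the proteins have bacterial counterparts and others exist only in mitochondria. Thymocytes of the DN2 and DN3 stages pass through rounds of proliferation. Symbols do not always give the place of a protein: the products of Mrps18a and Mrps30 sit in the large subunit, and that of Mrps36 has since been assigned to the 2-oxoglutarate dehydrogenase complex.

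Each genotype and gate other than Lck-cre is a single library. No test between genotypes was made and no p-value is given. A cell was kept when 1000 or more genes had a count, which left 675 of 768, from 58 to 96 per plate. The summed libraries held from 1547512 counts (DN1, Vav-cre) to 8371808 counts (DN2-3, Tcf7-/-). Levels are CPM, the counts of a gene scaled to the same total in every summed library, and exact 95% Poisson intervals cover counting error only. The only measure of spread comes from the Lck-cre plates, which have the same genotype and gate. Whether they came from different mice is not given. In the DN2-3 gate Tcf7 itself stood at 862 CPM in WT, 122 CPM in Tcf7-/-, 762 and 658 CPM on the Lck-cre plates and 964 CPM in the library labelled Vav-cre. In the DN1 gate it was 134 CPM in WT, 98.6 CPM in Tcf7-/- and 368 CPM in the library labelled Vav-cre. Counts over the whole gene do not check the deletion of a floxed part, and Tcf7 therefore leaves the Vav-cre label unchecked. The Tcf7-/- cells carry a different layout of labels from all other cells, so for this genotype a batch effect and the genotype cannot be told apart.

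The DN1 plates did not hold the same cells. The summed level of 15 NK and cytotoxic genes was 8825 CPM in WT, 6965 CPM in Tcf7-/- and 4164 CPM in the library labelled Vav-cre, with 14, 15 and 13 of the 15 genes detected. At least 3 of these genes had more than 5 counts in 77 of 86 WT cells, 54 of 96 Tcf7-/- cells and 11 of 58 cells labelled Vav-cre. With a limit of 2 or more counts, 85, 89 and 16 cells were marked in the same order. Such limits depend on depth, and the median counts per cell were 66572, 37088.5 and 19293. The part of depth was not tested. The 12 innate lymphoid genes listed summed to 7178, 6673 and 9853 CPM in the same order. Myeloid genes summed to 1510, 510.2 and 2381 CPM, genes of early progenitors to 199.5, 1380 and 895 CPM, and the G2/M-phase genes to 220.3, 1388 and 251 CPM. The defining T-lineage genes of the DN2-3 gate, such as Il2ra, Ptcra and Cd3e, summed to between 7465 and 10573 CPM over the 5 DN2-3 plates and between 2125 and 4582 CPM over the 3 DN1 plates. The library of DN2-3 cells labelled Vav-cre held 9729 CPM of the NK and cytotoxic list. Of the 15 genes, 8 were detected there and 4 reached 10 CPM. Klrb1c, Ncr1, Eomes, Tbx21, Klra9, Klra3 and Klra7 were at 0.

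Transcripts of the mitochondrial ribosomal protein genes made up from 0.711% to 1.23% of the counts of a library and were more abundant in DN2-3 than in DN1 cells. In DN1 cells the 77 genes summed to 7972.5 CPM (7907 to 8038) in WT, 8360 CPM (8272 to 8448) in Tcf7-/- and 7107 CPM (6975 to 7241) in the library labelled Vav-cre. In DN2-3 cells they summed to 10057 CPM (9969 to 10145) in WT, 12300.3 CPM (12225 to 12376) in Tcf7-/-, 9554 CPM (9463 to 9646) in the library labelled Vav-cre, and 11296 and 11737 CPM on the Lck-cre plates. All 5 DN2-3 libraries lay above all 3 DN1 libraries. This order was shared by other groups. Genes of oxidative phosphorylation summed to between 29010 and 29839.5 CPM in DN1 and between 33021 and 44933 CPM in DN2-3. Those of the proteasome summed to between 8366 and 9339 CPM in DN1 and between 10022 and 12709 CPM in DN2-3. The cytosolic ribosome did not share it, with 221349 CPM in WT DN1 and 193849 CPM in WT DN2-3. The highest DN2-3 value belonged to Tcf7-/- and the lowest to the library labelled Vav-cre.

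**Figure D1:**
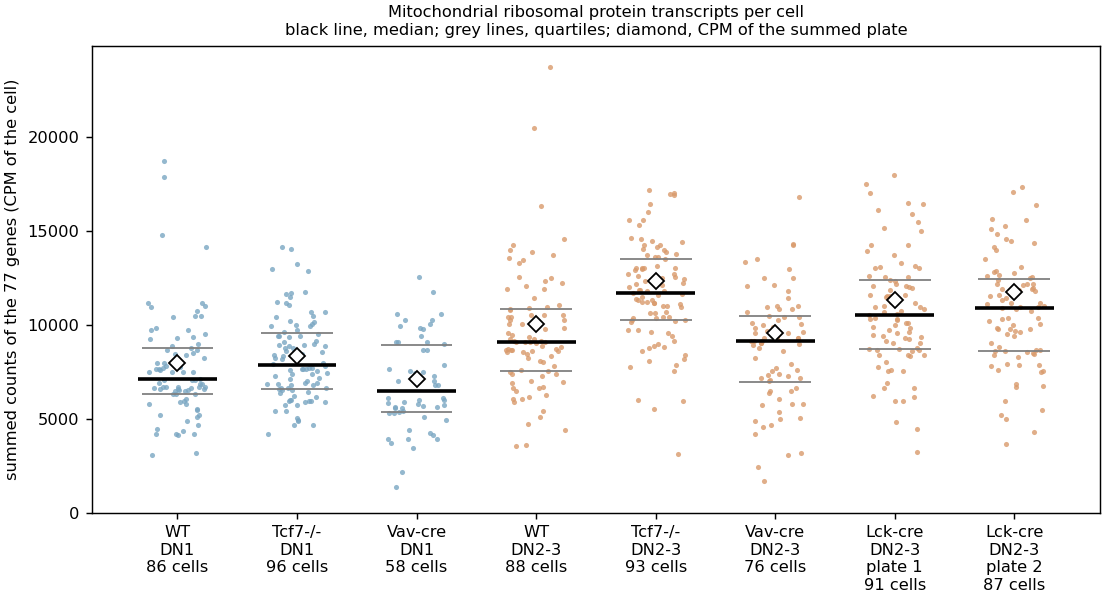
Summed level of the 77 genes in each kept cell (points, CPM of the cell's own counts) on the 8 plates, blue for DN1 and orange for DN2-3, with the median, the quartiles and the CPM of the summed plate. Cells of every plate overlap those of the others, while the medians run from 6458 CPM (DN1, Vav-cre label) to 11705 CPM (DN2-3, Tcf7-/-).

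Single cells gave nearly the same picture, except that WT and the Vav-cre label changed places in DN2-3. The median cell had 7097, 7864 and 6458 CPM in the WT, Tcf7-/- and Vav-cre DN1 plates, and 9088, 11705 and 9151 CPM in the DN2-3 plates of these labels. On the Lck-cre plates it had 10523 and 10884 CPM. Single cells spread widely, from 3566 to 23726 CPM in WT DN2-3 and from 3147 to 17188 CPM in Tcf7-/- DN2-3. The coefficient of variation between cells was 22.8% in Tcf7-/- DN2-3 and from 26.7% to 35.3% on the other 7 plates. These cells also had the most counts, with a median of 70003 per cell against 43593 in WT DN2-3, and the part of depth in the smaller spread was not tested.

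Few cells showed the whole set. The median cell had a count for 54 of the 77 genes in Tcf7-/- DN2-3, 35.5 in WT DN2-3 and 17.5 in the DN1 library labelled Vav-cre. After every cell was thinned to 10000 counts, with 4 to 23 shallower cells left out per plate, these medians were 38, 27 and 15. On the Lck-cre plates the thinned medians were 29 and 30.5, on the WT and Tcf7-/- DN1 plates 21 and 27, and on the DN2-3 plate labelled Vav-cre 28. The order of the 3 plates named first therefore held at equal depth.

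Of the 77 genes, 74 reached 10 CPM in at least 1 library of every comparison and are called measured here. Mrpl53 had 0 counts on every plate, and Mrps18b and Mrps34 stayed under 10 CPM on all of them. Exons of all 3 overlap exons of another gene in the GENCODE annotation, as do those of 32 of the 77 members, and how ambiguous reads were treated is not given. A near-identical stretch in the transcript of a gene elsewhere, at least 95% over 300 bases, was found for 14 members, among them Mrps36, Mrps25, Mrps33, Mrps5, Mrpl48 and Mrpl22. Values of these 14 may be split with or borrowed from the copy.

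Between the gates of WT mice, the summed level was 1.26-fold higher in DN2-3 than in DN1 (log2 ratio 0.34, interval 0.32 to 0.35). For single genes, log2 ratios used a pseudocount of 10 CPM, and a gene at least 2-fold apart was counted. Of the 74 measured members, 7 had a level in WT DN2-3 at least 2-fold that of DN1, against 16.3% of all measured genes, and 0 were at least 2-fold lower, against 11.7%. With TMM scaling, edgeR's correction for a few genes that take many counts, the summed log2 ratio was 0.14 and 2 members were at least 2-fold higher. Among members, 55 lay above 0, where the share over all genes was 56.9%. The members' median log2 ratio was 0.38 and that of all genes 0.15. The 7 were Mrps10, Mrpl45, Mrpl41, Mrpl39, Mrpl19, Mrpl46 and Mrps5, of which Mrps10 and Mrpl45 stayed past 2-fold under each of the 7 other scalings, weightings and filters run. Mrps24 (421 CPM in DN1, 223 CPM in DN2-3), Mrps30, Mrps35, Mrps25 and Mrpl44 had the lowest ratios, from -0.89 to -0.62.

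The gate difference was larger in Tcf7-/- cells, at 1.47-fold (log2 0.56, interval 0.54 to 0.57). In all, 10 members were at least 2-fold higher in DN2-3 (8.14% of all genes) and 0 were lower (17.1%), and 64 of 74 lay above 0 (44.3%). Mrps36, Mrps6, Mrps18a, Mrpl16 and Mrpl47 led with log2 ratios from 1.52 down to 1.20, followed by Mrpl21, Mrps25, Mrps5, Mrps2 and Mrpl48. Of the 10, 4 stayed past 2-fold under each of those settings: Mrps36, Mrps6, Mrps18a and Mrpl48. Between the libraries labelled Vav-cre the difference was 1.34-fold (log2 0.43, interval 0.40 to 0.46), with 55 of 74 members above 0 (44% of all genes), 13 at least 2-fold higher (15.9%) and 3 lower (24.7%). The 13 were led by Mrpl40 and Mrpl15, and the 3 were Mrpl49, Mrpl52 and Mrps10. Of these 16, 6 stayed past 2-fold under each of those settings: Mrpl40, Mrpl15, Mrps35, Mrpl1, Mrpl12 and Mrpl49. The members' medians were 0.53 in Tcf7-/- and 0.43 under the Vav-cre label, while those of all genes were -0.12 and -0.18. The different cell makeup of the DN1 plates, given above, moved with these ratios and its part was not tested. Cell-cycle transcripts moved with the gate too: the S-phase genes summed to 1083 CPM in DN1 and 2833 CPM in DN2-3 of WT, 1118 and 4723 CPM in Tcf7-/-, and 1111 and 2571 CPM under the Vav-cre label. With DN2-3 cells of lower cell-cycle level described below against all kept DN1 cells, the gate ratio was 0.31 in Tcf7-/- in place of 0.56. It was 0.30 in place of 0.43 under the Vav-cre label, and the WT ratio was lower too. DN1 cells were not filtered by cell-cycle level, and the part of the cell cycle was not tested.

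**Figure D2:**
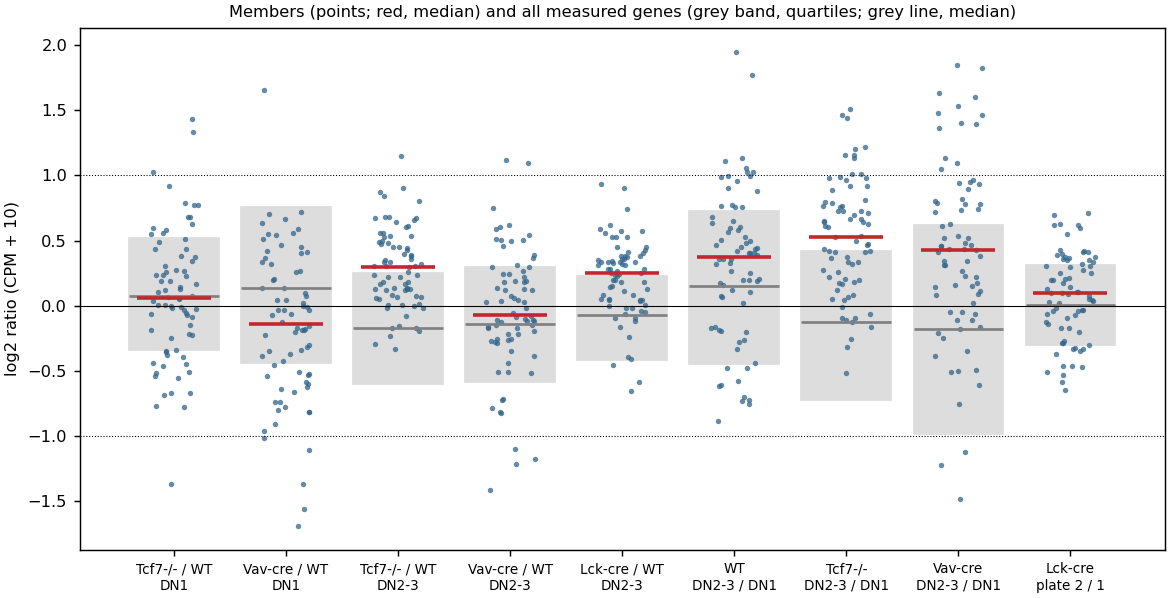
Log2 ratios of the 74 measured members (points; red line, their median) in the 8 comparisons and between the Lck-cre plates, with the quartiles (grey band) and median (grey line) of all measured genes. The members' median lies at 0.30 in Tcf7-/- and 0.25 in Lck-cre DN2-3 cells relative to WT, where all genes have medians of -0.17 and -0.08.

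Within the DN2-3 gate, the summed level was 1.22-fold higher in Tcf7-/- than in WT (log2 0.29, counting interval 0.28 to 0.31). Over the alternatives run, the log2 ratio lay between 0.14, in cells of lower cell-cycle level, and 0.53, with TMM scaling, where 5 members in place of 1 were at least 2-fold higher. The Lck-cre plates differed from each other by a log2 ratio of 0.06, with 45 of 74 members above 0 (50.2% of all genes), 0 at least 2-fold higher on plate 2 (2.8%) and 0 lower (2.59%). The difference between Tcf7-/- and WT was spread over the set: 63 of 74 members lay above 0, against 39.5% of all genes, but 1 alone was at least 2-fold higher (3.19%) and 0 were at least 2-fold lower (10.5%). At 1.5-fold, 13 members were higher (10.6%) and 0 lower (25.8%). The members' median log2 ratio was 0.30. Among the 3876 genes with at least 50 CPM in either library the median was -0.11, and among the 67 members at that level it was 0.30. Most single differences were no larger than those seen between the Lck-cre plates, where the median absolute log2 ratio of members was 0.30 and the largest 0.71. The value of 0.71 was exceeded by 5 members in Tcf7-/- relative to WT, all of them upward.

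These 5 were Mrps6, Mrps22, Mrpl11, Mrpl48 and Mrpl20. Mrpl48 had a log2 ratio of 0.84, but 0.47 with cells weighted equally and 0.39 with cells thinned, so it did not stay beyond 0.71. Mrps6, a small-subunit protein with a bacterial counterpart, had 86.2 CPM in WT and 204 CPM in Tcf7-/-, 57.5 CPM in the library labelled Vav-cre and 138 and 106 CPM on the Lck-cre plates. It was detected in 84.9% of Tcf7-/- DN2-3 cells and in 44.3% of WT cells, and the Tcf7-/- value was the highest of all 8 plates. Its exons overlap those of Slc5a3 on the same strand, so reads of both genes may be mixed. Mrps22, a mitochondria-specific protein of the small subunit, had 32.4 CPM in WT and 69.4 CPM in Tcf7-/-, with 42.4 CPM under the Vav-cre label and 42.5 and 70.7 CPM on the Lck-cre plates. Its Tcf7-/- value lay close to that of Lck-cre plate 2, and WT was the lowest of the 5 libraries. Mrpl11, whose bacterial counterpart lies where elongation factors bind, was lowest in WT at 45.6 CPM and stood at 91.98 CPM in Tcf7-/-, 83.8 CPM under the Vav-cre label and 91.8 and 101 CPM on the Lck-cre plates. WT was again the lowest of the 5 DN2-3 libraries.

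The lowest ratios in Tcf7-/- DN2-3 cells belonged to Mrpl45, Mrps10, Mrpl49, Mrpl55 and Mrpl34, between -0.33 and -0.18, which is inside the range of the Lck-cre plates. No member was called lower in this comparison at 2-fold or at 1.5-fold.

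Lck-cre DN2-3 cells had a summed level 1.15-fold that of WT (mean log2 0.20, from 0.17 on plate 1 and 0.22 on plate 2). Both plates lay above WT by more than the 0.06 between them. The mean was 0.31 with TMM scaling and 0.067 in cells of lower cell-cycle level. In those cells the plates differed from each other by 0.10, more than that mean. In the mean of both plates 58 of 74 members lay above 0 (43.2%), 0 were at least 2-fold higher (0.935%) and 0 lower (3.48%), and the members' median was 0.25 beside -0.08 over all genes. The highest ratios that had the same sign on both plates were those of Mrpl11 (0.94), Mrpl22 (0.75), Mrps22 (0.62), Mrpl55 (0.59) and Mrpl44 (0.57). The lowest were those of Mrpl45 (-0.65), Mrps5 (-0.46), Mrpl49 (-0.41), Mrpl57 (-0.40) and Mrps33 (-0.09). The comparisons of Tcf7-/-, Vav-cre and Lck-cre share the WT library, so a gene with an unusual WT value differs in all of them.

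The DN2-3 library labelled Vav-cre did not share the higher level. Its summed level was 0.95 times that of WT (log2 -0.07, interval -0.09 to -0.05), about the size of the difference between the Lck-cre plates. With TMM scaling the log2 ratio was 0.096 and with cells weighted equally -0.13, so its direction depends on the scaling. Of 74 members 35 lay above 0 (41.5%), and the members' median of -0.07 stood beside -0.14 over all genes. The 2 members Mrpl10 (15.7 and 45.9 CPM) and Mrpl1 (23.9 and 62.3 CPM), were at least 2-fold higher than in WT (5.77%). At least 2-fold lower were 4 members (10.5%): Mrps10, Mrpl49, Mrpl45 and Mrpl41. Of these 6, Mrps10, Mrpl49 and Mrpl45 stayed past 2-fold under each of the other settings. Mrpl41, a mitochondria-specific protein of the large subunit, had 205 CPM in WT, 255 CPM in Tcf7-/-, 199 and 205 CPM on the Lck-cre plates and 89.9 CPM here. Mrpl49 had 70.7 CPM in WT, 58.5 CPM in Tcf7-/-, 49.1 and 52.7 CPM on the Lck-cre plates and 24.6 CPM here. For both genes this library was the lowest of the 5 in the gate.

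In the DN1 gate the summed level of Tcf7-/- was 1.05 times that of WT (log2 0.07, interval 0.05 to 0.09). It was -0.023 with TMM scaling and 0.13 with cells thinned, so its direction depends on the processing. Members did not stand out from other genes: 42 of 74 lay above 0 (54.9% of all genes), 3 were at least 2-fold higher (10.4%) and 1 was lower (5.34%). The 3 were Mrps10, Mrpl13 and Mrps31, and the 1 was Mrps25. Of the 4, 0 stayed past 2-fold under every other setting. Mrpl13, a large-subunit protein with a bacterial counterpart, had 189 CPM in WT, 493 CPM in Tcf7-/- and 116 CPM under the Vav-cre label. One Tcf7-/- cell gave 35.3% of its counts, and with the highest cell of each gene left out the log2 ratio to WT was 1.12 in place of 1.34. With cells weighted equally it was 0.72. Mrps25 had 108 CPM in WT and 35.6 CPM in Tcf7-/-, and shares sequence with Gm42933 and exon positions with Nr2c2.

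The DN1 library labelled Vav-cre had 0.89 times the WT level (log2 -0.17, interval -0.20 to -0.14). The log2 ratio was -0.37 with TMM scaling and -0.086 in cells with at least 2000 genes. One member, Mrps10, was at least 2-fold higher (18%) and 5 were lower (9.64%): Mrps35, Mrpl40, Mrps25, Mrpl1 and Mrpl15. Of these 6, Mrps10, Mrps35, Mrpl40 and Mrpl15 stayed past 2-fold under each of the other settings. Members above 0 numbered 29 of 74, against 56.3% of all genes, and the members' median was -0.14 beside 0.13 over all genes. This library is the shallowest, and single cells weigh heavily in it. One cell gave 68% of the Mrpl1 counts and 41.7% of the Mrpl40 counts, and all 5 counts of Mrps31 came from 1 cell. Leaving out each gene's highest cell gave a log2 ratio of the sum of -0.31. Cells that were NK-marked by the count given above had 7842 CPM of the set and the others 9259 CPM in WT, 7764 and 9358 CPM in Tcf7-/-, and 7103 and 7108 CPM under the Vav-cre label. Marked Tcf7-/- cells had a median of 42216 counts and the others 17877, and the part of depth was not tested. In DN1 cells so marked the log2 ratio of Tcf7-/- to WT was -0.01. This split was chosen after the values were seen.

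The 5 eligible members that varied most over the 8 plates were Mrps31, Mrps6, Mrpl45, Mrps10 and Mrpl40, with a range of log2(CPM + 10) between 2.09 and 2.33, where the median of the 69 eligible members was 1.20. Mrps10 (chr17:47368887-47381417, plus strand, mm10), a small-subunit protein with a bacterial counterpart, stood at 14.9 CPM in WT DN1, 57.2 CPM in Tcf7-/- DN1 and 68.5 CPM in the DN1 library labelled Vav-cre. In DN2-3 it stood at 86.2 CPM in WT, 68.3 CPM in Tcf7-/-, 26.02 CPM under the Vav-cre label and 93.7 and 96.4 CPM on the Lck-cre plates. WT DN1 and DN2-3 labelled Vav-cre were the low libraries, so its gate difference was upward in WT (log2 1.95) and downward under the Vav-cre label (-1.12). It was detected in 11.6% of WT DN1 cells, 35.2% of WT DN2-3 cells and 13.2% of the DN2-3 cells labelled Vav-cre.

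Mrpl45 (chr11:97315716-97329920, plus strand, mm10) encodes the mitochondria-specific protein that faces the inner membrane at the exit of the large subunit. It had 47.7, 82.5 and 35.5 CPM in WT, Tcf7-/- and Vav-cre DN1 cells. In DN2-3 it had 187 CPM in WT, 146 CPM in Tcf7-/-, 76.9 CPM under the Vav-cre label and 131 and 102 CPM on the Lck-cre plates. WT was the highest of the 5 DN2-3 libraries, against the direction of the set as a whole in Tcf7-/- and Lck-cre. Mrpl40 ran from 31.02 CPM (DN1, Vav-cre label) to 164 CPM (DN2-3, Tcf7-/-) and differed little among DN2-3 plates, which spanned 138 to 164 CPM. Mrps31 stayed between 31.04 and 56.3 CPM on the DN2-3 plates and was at 14.9, 40.6 and 3.23 CPM in DN1.

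**Figure D3:**
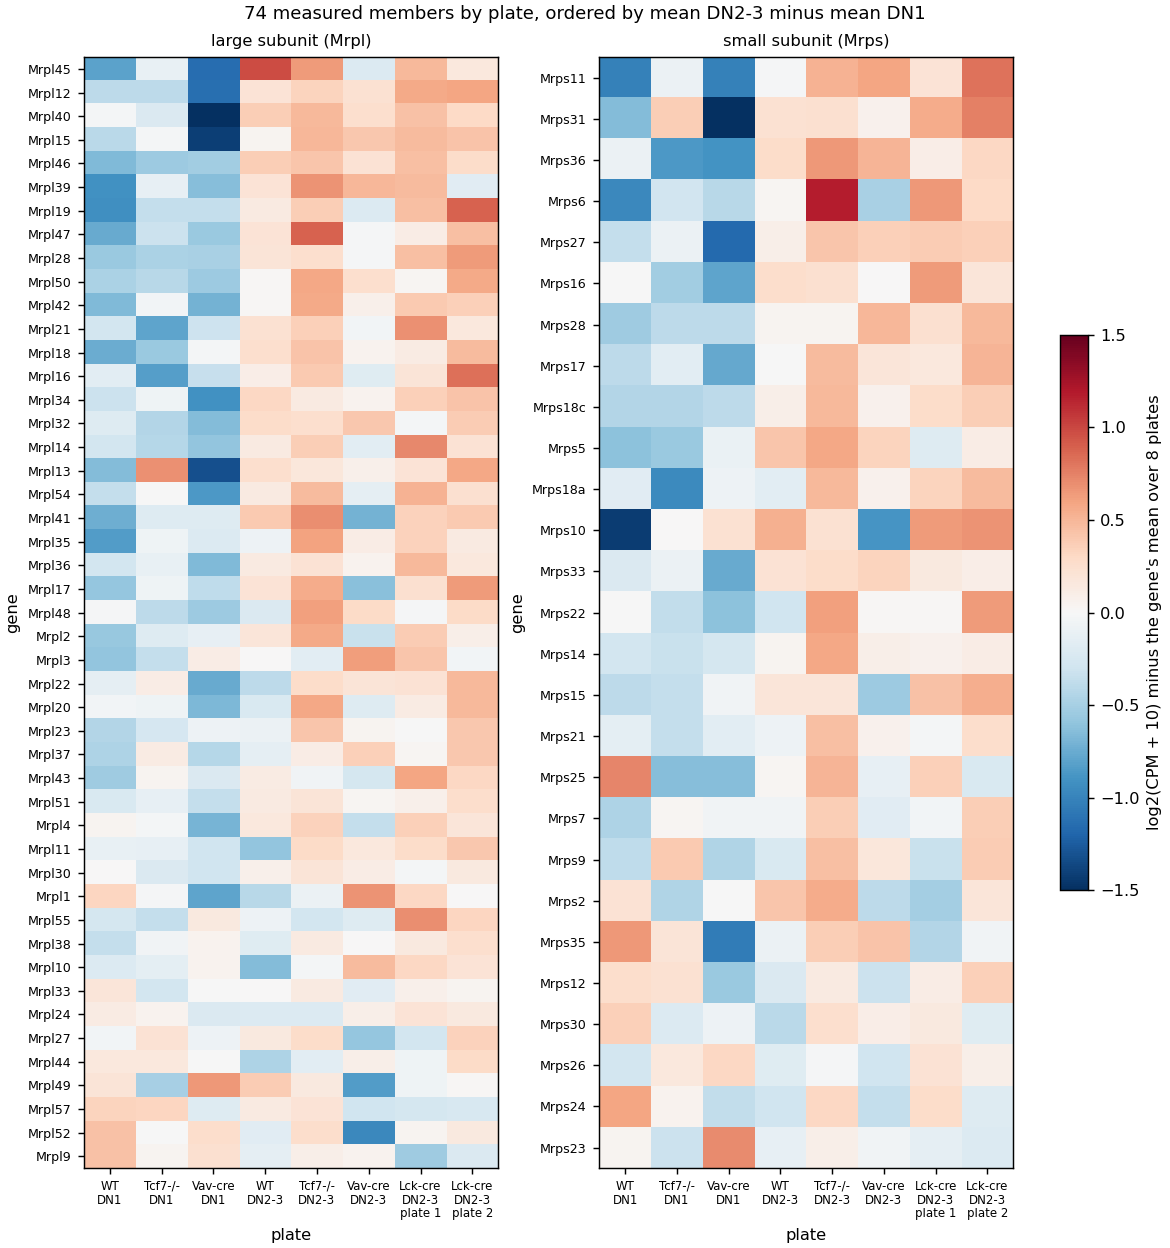
Log2(CPM + 10) of the 74 measured members on the 8 plates, each gene relative to its own mean, for large-subunit (left) and small-subunit (right) symbols. Rows are ordered by the mean of DN2-3 less the mean of DN1, so the colour change from left to right within the upper rows follows from the ordering; 33 members are lowest in DN1 labelled Vav-cre and 23 highest in Tcf7-/- DN2-3.

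Across plates, 33 of the 74 measured members had their lowest level in DN1 labelled Vav-cre and 20 in WT DN1. The highest level fell in Tcf7-/- DN2-3 for 23, on Lck-cre plate 2 for 22, and in WT DN1 for 8. Of the 74, 1 member, Mrpl45, was highest in WT DN2-3. Large-subunit and small-subunit symbols did not always go together. Large-subunit symbols made up 58.8% of the set's counts in WT DN1 and 63.3% in Tcf7-/- DN1. In that comparison their sum was higher in Tcf7-/- (log2 0.18) and the sum of the small-subunit symbols lower (-0.10). The lower sum includes Mrps18a (-0.78), Mrps30 (-0.56) and Mrps36 (-0.77), whose products are placed outside the small subunit, as given above. The higher sum includes Mrpl13, with 189 CPM in WT and 493 CPM in Tcf7-/-. Sums without these genes were not made, so the values describe symbols and not subunits. In Tcf7-/- DN2-3 relative to WT both sums were higher, with 0.24 for the large-subunit and 0.37 for the small-subunit symbols. On the Lck-cre plates the means were 0.20 and 0.19. In the DN2-3 library labelled Vav-cre they were -0.12 and 0.01, and between the WT gates 0.43 and 0.19.

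Promoters of the members were read from the RefSeq table of GRCm38.p6, which held 68 of the 77 genes with 74 promoters, each from 250 bases before to 50 after a start. Motifs were searched on both strands by their letters. The core motif of NRF1, a regulator of respiratory genes, was in 17.6% of member promoters and in 4.6% of all 32851. CCGGAAG, an ETS motif as bound by GABPA, was in 33.8% and 8.86%. AAGATGGCG, the motif of YY1, was in 10.8% and 1.40%, and CACGTG, the E-box, in 9.46% and 7.15%. Counted by gene, the E-box was in 7.35% of members and 8.09% of all genes, since overlapping promoters of Mrpl2 each hold it. By gene the shares were 19.1% and 5.19% for NRF1, 36.8% and 9.93% for ETS, and 11.8% and 1.64% for YY1. The shares were not matched for base composition, and a match does not show binding. One promoter is shown for each of the first 3 motifs, in lower case with the matches in capitals. They are those of Mrpl45 (chr11:97315466-97315765, plus strand), with NRF1 matches beginning 120 and 38 bases before and 15 bases after the start, of Mrpl17 (chr7:105811038-105811337, minus strand), with an ETS match 237 and an NRF1 match 49 bases before it, and of Mrps18a (chr17:46110754-46111053, plus strand), with an ETS match 26 bases before and a YY1 match 11 bases after it.
Mrpl45: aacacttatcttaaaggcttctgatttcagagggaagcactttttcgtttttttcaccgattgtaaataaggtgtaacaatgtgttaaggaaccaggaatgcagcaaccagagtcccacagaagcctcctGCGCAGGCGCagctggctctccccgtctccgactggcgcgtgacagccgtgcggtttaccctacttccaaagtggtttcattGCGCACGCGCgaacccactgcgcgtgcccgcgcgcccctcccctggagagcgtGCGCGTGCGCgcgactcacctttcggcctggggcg
Mrpl17: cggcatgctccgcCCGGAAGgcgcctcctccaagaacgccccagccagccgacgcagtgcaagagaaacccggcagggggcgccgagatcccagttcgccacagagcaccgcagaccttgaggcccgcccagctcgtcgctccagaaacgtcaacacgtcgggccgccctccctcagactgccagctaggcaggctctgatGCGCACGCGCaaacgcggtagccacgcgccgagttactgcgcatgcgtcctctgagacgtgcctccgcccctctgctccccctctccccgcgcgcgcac
Mrps18a: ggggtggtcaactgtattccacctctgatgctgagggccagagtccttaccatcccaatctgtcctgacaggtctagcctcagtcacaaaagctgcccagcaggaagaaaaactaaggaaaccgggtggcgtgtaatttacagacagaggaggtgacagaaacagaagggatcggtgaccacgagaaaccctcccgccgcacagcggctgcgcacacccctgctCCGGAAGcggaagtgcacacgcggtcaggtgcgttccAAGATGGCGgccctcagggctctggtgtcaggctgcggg
The messages of these regulators were measured too. In DN2-3 cells Nrf1 had 45.01 CPM in WT and 33.9 CPM in Tcf7-/-, Gabpa 25.3 and 13.6 CPM, and Yy1 76.6 and 74.2 CPM. The list of 12 regulators of mitochondrial gene expression summed to 424 CPM in DN1 and 520 CPM in DN2-3 of WT, 408 and 487 CPM in Tcf7-/-, and 277 and 323 CPM under the Vav-cre label. On the Lck-cre plates it summed to 508 and 527 CPM. Whether these messages bear on the level of the set was not tested.

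Within DN2-3 plates, cells rich in cell-cycle transcripts had more of the set. Cells were split at the median, over all kept DN2-3 cells, of the summed level of 44 S-phase and G2/M-phase genes, 2394 CPM. This split was chosen after the values were seen. Cells above it had more of the set on 5 of 5 plates. The summed level in the lower and higher cells was 9439 and 11121 CPM in WT, 10377 and 12887 CPM in Tcf7-/-, 8728 and 10687 CPM under the Vav-cre label, 9548 and 12256 CPM on Lck-cre plate 1 and 10245 and 13154 CPM on plate 2. The log2 ratios were 0.24, 0.31, 0.29, 0.36 and 0.36. In the same order, those of oxidative phosphorylation genes were 0.22, 0.20, 0.20, 0.32 and 0.24, and those of proteasome genes 0.13, 0.21, 0.24, 0.33 and 0.28. Those of the cytosolic ribosome were -0.04, -0.12, -0.20, 0.01 and -0.10. The level of the set in the median cell moved less under the Vav-cre label, from 8991 to 9219 CPM. From 5 to 11 cells per plate lay within 10% of the split. The higher cells also had more counts on some plates, with a median per cell of 64367 against 41097 in WT, 76291 against 55055 in Tcf7-/- and 61814 against 54920 on Lck-cre plate 1. On Lck-cre plate 2 and under the Vav-cre label the medians were close, at 46132 against 45241 and 43774 against 43901. The part of depth was not tested on any of the 5 plates.

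**Figure D4:**
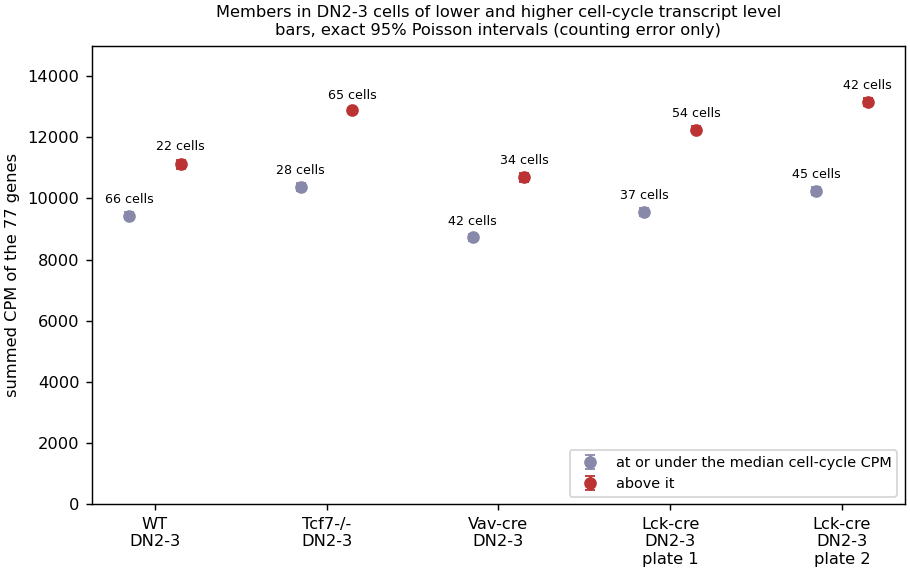
Summed level of the 77 genes in DN2-3 cells at or under (grey-blue) and above (red) the median cell-cycle transcript level, with exact 95% Poisson intervals, by plate. The higher cells lie above the lower ones on all 5 plates, and the number of cells shows that the higher cells are 25% of WT but 69.9% of Tcf7-/- cells.

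The plates differed in how many cells lay above the split: 25% in WT, 69.9% in Tcf7-/-, 44.7% under the Vav-cre label and 59.3% and 48.3% on the Lck-cre plates. Among lower cells alone the log2 ratio of the set to WT was 0.14 in Tcf7-/- in place of 0.29, and 0.07 in Lck-cre in place of 0.20. Between the Lck-cre plates the log2 ratio in lower cells was 0.10. Higher cells of Tcf7-/- and Lck-cre also had more of the set than those of WT, while those under the Vav-cre label had less. The higher cells held 11121 CPM in WT, 12887 CPM in Tcf7-/-, 12256 and 13154 CPM on the Lck-cre plates and 10687 CPM under the Vav-cre label. The part of the cell cycle in the genotype differences was not tested. Members differed in how they followed the split. Of the 55 members with at least 50 CPM on all 5 DN2-3 plates, 21 were higher in the higher cells on every plate and 0 were lower on every plate. Mrpl17 (median log2 ratio 1.02, from 0.53 to 1.12), Mrpl18 (0.98, from 0.66 to 1.38) and Mrpl42 (0.96, from 0.81 to 1.48) were the highest of those above 0 on all 5 plates. Mrpl18 had 217 and 408 CPM in lower and higher WT cells and 223 and 358 CPM in those of Tcf7-/-. Above 0 in the higher cells were 46 of 74 members in WT (45.4% of all genes), 55 in Tcf7-/- (44.8%), 49 under the Vav-cre label (49%), and 58 (44.2%) and 53 (45.8%) on the Lck-cre plates. At least 2-fold higher were 3 members in WT (9.35% of all genes), 7 in Tcf7-/- (9.91%), 7 under the Vav-cre label (11.6%), and 15 (10.5%) and 11 (11.2%) on the Lck-cre plates. At least 2-fold lower were 1 (14.4%), 2 (13.2%), 0 (13%), 1 (13%) and 1 (13.1%) in the same order. The set thus lay above 0 more often than all genes on the 5 plates, while its share of 2-fold differences upward passed that of all genes on the Lck-cre plates alone.

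Mrps6 and Mrpl48 had the lowest medians with Mrps5. Mrps6 lay below 0 on 4 of the 5 plates, with 312 CPM in lower and 171 CPM in higher Tcf7-/- cells, and was above it under the Vav-cre label, with 13.8 and 117 CPM. The member that differed most between Tcf7-/- and WT in this gate was thus higher in the cells with fewer cell-cycle transcripts in Tcf7-/-.

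In Tcf7-/- DN2-3 cells, genes of oxidative phosphorylation, the proteasome and the cytosolic ribosome lay above WT more often than all measured genes, of which 39.5% did. For the 4 shorter lists of mitochondrial translation and DNA upkeep the counts lay near that background. The 77 measured genes of oxidative phosphorylation, whose mitochondrially encoded partners the mitochondrial ribosome makes, had a median log2 ratio to WT of 0.39, with 69 above 0. The proteasome had 0.32 (31 of 37 above 0) and the cytosolic ribosome 0.27 (72 of 81). The 5 measured mitochondrial ribosomal proteins with other symbols had a median of 0.38, and Chchd1 (214 and 335 CPM) was among the 4 above 0. Ribosome assembly and rRNA modification factors had -0.20 (10 of 22 above 0), translation factors -0.27 (3 of 11), mitochondrial aminoacyl-tRNA synthetases -0.35 (7 of 15) and genes of mitochondrial DNA upkeep and transcription -0.48 (3 of 9). Over all measured genes the median was -0.17. The elongation factor gene Tufm had 121 and 84.6 CPM and its exchange factor Tsfm 41.8 and 89.4 CPM. No library replicates this contrast.

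**Figure D5:**
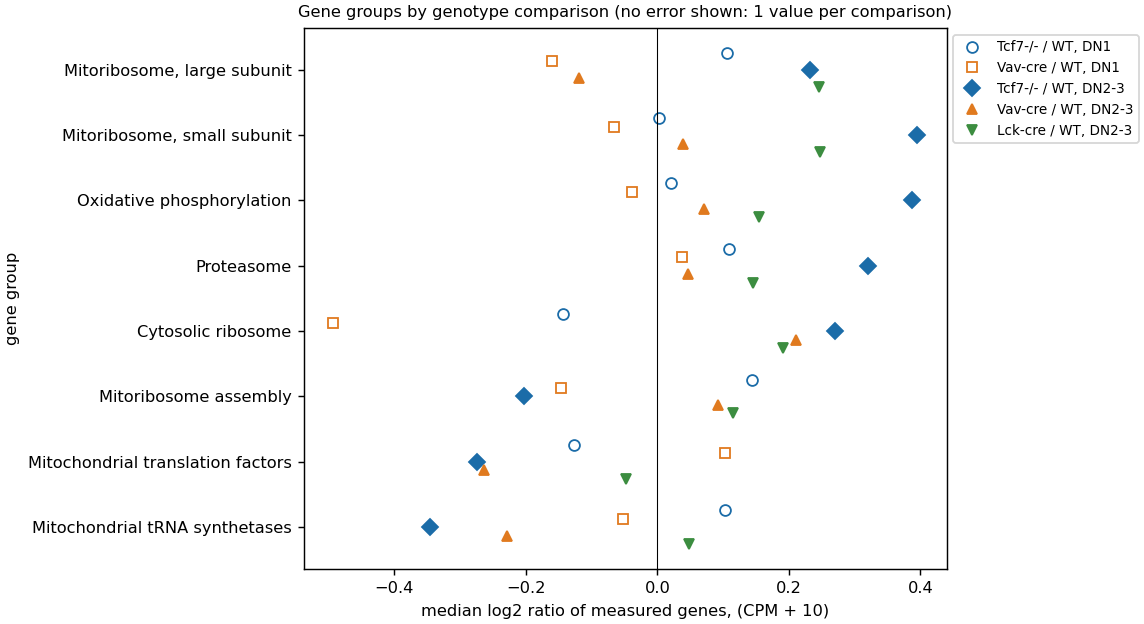
Median log2 ratio to WT (CPM + 10) of the measured genes of 8 groups, by genotype label, with open symbols for DN1 and filled for DN2-3. In Tcf7-/- DN2-3 (filled diamonds) both mitoribosomal subunits, oxidative phosphorylation, the proteasome and the cytosolic ribosome lie between 0.23 and 0.40, and assembly factors, translation factors and synthetases between -0.35 and -0.20.

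In Lck-cre DN2-3 cells the medians of these 4 smaller lists lay between -0.05 and 0.12, beside 0.25 for the set. In the DN2-3 library labelled Vav-cre the cytosolic ribosome (median 0.21, 70 of 81 above 0) was above WT, where 41.5% of all genes were, while the mitochondrial ribosome was not (-0.07). In the DN1 library of that label the cytosolic ribosome was lower than in WT (-0.49, 2 of 82 above 0, against 56.3% of all genes).

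Within plates, cells with more of the set also had more oxidative phosphorylation transcripts. Spearman's rho across the 58 to 96 kept cells of a plate lay between 0.30 and 0.71 for oxidative phosphorylation and between 0.17 and 0.58 for the proteasome. It lay between -0.11 and 0.25 for the cytosolic ribosome, between 0.02 and 0.50 for S-phase genes and between -0.12 and 0.36 for total counts. For G2/M-phase genes it was 0.54 on Lck-cre plate 1 and between -0.08 and 0.18 elsewhere. The large and the small subunit correlated with each other at 0.17 to 0.50. The cells of a plate share library and the total by which each is scaled, and sparse counts weaken such values.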

How the data were processed

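RNA was measured in single cells with a modified STRT protocol, per the labels, which also mention Smart-seq2. Per the submitters' processing notes, the tools were TopHat2 2.1.1 and HTSeq, on mm10, also given as GRCm38 for 576 cells. Whether molecular identifiers were collapsed is not given in the sources used here. The deposited tables hold the authors' raw counts and log2 values, log2(TPM/10 + 1), which served as an alternative here. Of 23154 entries, 27 with a date in place of a symbol (0.141% of counts) were dropped. Counts were summed over kept cells per plate and scaled to CPM. Ratios of sums carry exact conditional binomial intervals; no levels are compared between genes. The Lck-cre value is the mean of both plates' log2 ratios. TMM factors came from edgeR 4.0.16. Scripts ran in Python 3.11.15 and were tested on simulated data. No doublet caller was run on these plate-sorted cells.

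Per comparison, members were eligible for naming when a library had 50 CPM or more and 20% of its cells held a count. The rule picked the 5 highest and 5 lowest, with every member 2-fold apart, and the 5 with the widest range over plates. Not all members so picked are given in the text. For Lck-cre both plates had to have the same sign. The members, lists and rules were chosen with earlier results of these data known. Genes are described beside all measured genes, with no set test.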

Additional observations from a re-analysis of the deposited data

Results flagged for a closer look

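Several effects of genotype had opposite signs in the DN1 and the DN2-3 gate, each beyond counting error, and the difference between gates was not tested. The summed genes with small-subunit symbols in Tcf7-/- relative to WT had log2 ratios of -0.10 in DN1 and 0.37 in DN2-3. This sum includes Mrps18a, Mrps30 and Mrps36, whose products are placed outside the small subunit and which are in the list below. A sum without them was not made. Among named members, those higher in Tcf7-/- DN1 and lower in Tcf7-/- DN2-3 were, with both log2 ratios, Mrpl13 (1.34 and -0.084), Mrpl34 (0.26 and -0.18), Mrpl45 (0.68 and -0.33), Mrps10 (1.43 and -0.30). Those lower in DN1 and higher in DN2-3 were Mrpl48 (-0.38 and 0.84), Mrps18a (-0.78 and 0.64), Mrps22 (-0.35 and 0.91), Mrps25 (-1.37 and 0.49), Mrps30 (-0.56 and 0.66), Mrps36 (-0.77 and 0.38). For the libraries labelled Vav-cre, the members higher in DN1 and lower in DN2-3 were Mrpl18 (0.72 and -0.20), Mrpl41 (0.54 and -1.10), Mrpl49 (0.46 and -1.22), Mrps10 (1.66 and -1.42). The members lower in DN1 and higher in DN2-3 were Mrpl1 (-1.11 and 1.09), Mrpl15 (-1.02 and 0.36), Mrpl22 (-0.63 and 0.59), Mrps35 (-1.70 and 0.51). Of these 18 pairs of effects, 4 did not keep both signs under every scaling, weighting and filter run. Mrpl13 in Tcf7-/- DN2-3 ran from -0.095 to 0.15 and Mrpl34 from -0.25 to 0.13. Under the Vav-cre label, Mrpl22 ran from -0.82 to 0.27 in DN1 and from -0.12 to 0.75 in DN2-3, and Mrpl49 in DN1 from -0.16 to 1.02. All effects of a gate share its WT library, and the cell makeup of the DN1 plates differed as given above.

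The 93 cells below 1000 detected genes, which no comparison used, held 10614 CPM of the set in their summed counts. By plate this ran from 5405 CPM (Lck-cre plate 1) to 14389 CPM (WT DN1).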

How the results depend on the processing

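The log2 ratio of the summed set kept its sign under every alternative run for 6 of the 8 comparisons: Vav-cre DN1, Tcf7-/- DN2-3 and Lck-cre DN2-3 against WT, and all 3 gate comparisons. It changed sign for Tcf7-/- DN1 and Vav-cre DN2-3. Values outside the counting interval of the main value follow, and the causes were not tested. With cells weighted equally it was 0.097 for Tcf7-/- DN1, -0.13 for Vav-cre DN2-3, 0.31 for the WT gates, 0.50 for the Tcf7-/- gates and 0.35 for the Vav-cre gates. With cells thinned to 10000 counts it was 0.13 for Tcf7-/- DN1, 0.31 for Tcf7-/- DN2-3, -0.11 for Vav-cre DN2-3, 0.35 for the WT gates and 0.53 for the Tcf7-/- gates. With TMM scaling it was -0.023 for Tcf7-/- DN1, -0.37 for Vav-cre DN1, 0.53 for Tcf7-/- DN2-3, 0.096 for Vav-cre DN2-3, 0.31 for Lck-cre DN2-3, 0.14 for the WT gates, 0.70 for the Tcf7-/- gates and 0.61 for the Vav-cre gates. With at least 2000 genes per cell it was -0.086 for Vav-cre DN1 and 0.36 for the Vav-cre gates. With counts of 1 to 5 set to 0 it was -0.0040 for Tcf7-/- DN1 and 0.64 for the Tcf7-/- gates. With the deposited log2 values turned back it was 0.31 for Tcf7-/- DN2-3, -0.13 for Vav-cre DN2-3, 0.30 for the WT gates, 0.52 for the Tcf7-/- gates and 0.33 for the Vav-cre gates. Without the highest cell of each gene it was -0.31 for Vav-cre DN1, 0.32 for Tcf7-/- DN2-3, -0.10 for Vav-cre DN2-3, 0.40 for the WT gates, 0.65 for the Tcf7-/- gates and 0.61 for the Vav-cre gates. In NK-marked DN1 cells it was -0.014 for Tcf7-/- DN1, 0.36 for the WT gates and 0.66 for the Tcf7-/- gates. In DN1 cells with 3 NK genes at 2 or more counts it was 0.088 for Tcf7-/- DN1. In DN2-3 cells of lower cell-cycle level it was 0.14 for Tcf7-/- DN2-3, -0.11 for Vav-cre DN2-3 and 0.067 for Lck-cre DN2-3. Against all kept DN1 cells, it was 0.24 for the WT gates, 0.31 for the Tcf7-/- gates and 0.30 for the Vav-cre gates. Between the Lck-cre plates it was -0.0018 with cells weighted equally, -0.0021 thinned and -0.023 with the deposited values. In cells of lower cell-cycle level it was 0.10 between these plates, more than the 0.067 of Lck-cre relative to WT in such cells. Leaving out an Lck-cre plate gave 0.17 to 0.22. TMM moved the median of all genes from -0.17 to 0.03 in Tcf7-/- DN2-3, and the members' median from 0.30 to 0.51. Members at least 2-fold higher under TMM numbered 5 in place of 1 in Tcf7-/- DN2-3, 17 in place of 10 between the Tcf7-/- gates and 2 in place of 7 between the WT gates; those lower in Vav-cre DN1 numbered 7 in place of 5, and 9 when each gene's top cell was dropped. Between the Tcf7-/- gates, 5 were higher with cells weighted equally and 16 with low counts set to 0. Mrpl35 (Vav-cre DN1), Mrpl34 and Mrpl55 (Tcf7-/- DN2-3), Mrpl22 (Vav-cre DN2-3), Mrps33 (Lck-cre), Mrps12, Mrpl57 and Mrpl13 (Tcf7-/- gates) and Mrpl16 (Lck-cre plates) changed sign under at least 1 scaling or weighting.

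The NK and cell-cycle selections were chosen after seeing the data. The NK limit was first 2 or more counts, which marked 85 of 86 WT and 89 of 96 Tcf7-/- DN1 cells, and was then raised to more than 5. The length limit for near-identical copies was raised to 300 bases after repeats appeared below it. No paired analysis was possible because the shared numbers are well barcodes that recur on every plate, and no test was made. Members near 10 CPM rest on few counts in the shallowest library.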
